A study of Mus musculus with 2 samples.

Results

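Voltage-gated calcium channels, voltage-gated sodium channels and the hyperpolarization-activated HCN channels were examined in single cells of the mouse hippocampus. The members were the genes whose symbols name a calcium channel alpha1, alpha2delta, beta or gamma subunit, a sodium channel alpha or beta subunit, or an HCN channel: 44 of the 30223 genes in the table. One library came from wild-type C57Bl.6/J mice and 1 from C57Bl.6/J mice homozygous for the knock-in allele Pigv341E, each pooled from 4 mice (8 hippocampi) whose cells were freed mechanically in the cold; both were made by droplet capture (10x Genomics) and shared 1 sequencing lane. Sex and age of the mice were not given in the labels. The Pigv enzyme adds a mannose during the making of the glycosylphosphatidylinositol (GPI) anchor. With 1 library per genotype, genotype and library cannot be told apart, no test between genotypes was possible, and every difference below is between these libraries only.

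A voltage-gated calcium channel is built around an alpha1 subunit, which forms the pore and gives the channel its type. The extracellular alpha2delta subunits, reported to be held at the membrane by a GPI anchor, and the cytosolic beta subunits set how many channels reach the surface and how they gate; most gamma subunits of the brain serve instead as auxiliary subunits of AMPA-type glutamate receptors (TARPs). Sodium channel alpha subunits carry the action potential and are joined by beta subunits, and HCN channels carry an inward current on hyperpolarization that tunes resting excitability and dendritic integration.

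The table held 7094 wild-type and 8836 knock-in cells, with median totals of 8631 and 9608 per cell. Its values are depth-corrected and rounded, so the sequencing depth of a cell is unknown and the lowest value above 0 may or may not stand for a molecule that was read. Cells were clustered without the members and named from marker genes into 13 classes, none under 50 cells in either library, 7 of neurons and 6 of other cells; 828 and 1400 cells stayed unnamed. The markers of dentate granule neurons summed to 43.6 and 46.1 per 10000 in their class, those of CA1 neurons to 17.1 and 18 and those of CA3 neurons to 41.1 and 42.1 (wild-type, then knock-in). The wild-type classes held between 61 cells (Cajal-Retzius-like) and 1508 (oligodendrocyte-like), and the knock-in classes between 70 (choroid plexus-like) and 1506 (oligodendrocyte-like). The median mitochondrially encoded share was above that of wild-type cells in 13 of 13 classes of knock-in cells (0.01005 to 2.98% against 0.0386 to 4.48%), and 28 barcodes occurred in both libraries. Pigv was at 0.0886 and 0.1004 per 10000 over all cells; an edited codon need not alter the transcript level, so this does not check the labels. A level is a gene's summed values in a class per 10000 of all values summed there; paired values are given with wild-type first and knock-in second. Levels are not corrected for gene length, so each gene is described across classes and not against other genes.

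Of the 44 members, 33 reached 0.2 per 10000 in at least 1 of the 13 classes. The other 11 did not, among them the L-type alpha1 genes Cacna1f and Cacna1s, the gamma genes Cacng1 and Cacng6, the sodium channel genes Scn4a, Scn7a, Scn10a and Scn11a, the beta gene Scn4b, and Hcn4; their highest class level was 0.194 (Hcn4 in Cajal-Retzius-like cells). Several of these are best known from skeletal muscle or sensory ganglia. Among the 33, 29 (87.9%) had their highest level in a neuron class in both libraries, against 41.3% of the 12873 genes that met the same minimum. Among the 4 exceptions, Cacna2d4 and Hcn2 were highest in oligodendrocyte-like cells and Cacng4 in oligodendrocyte precursor-like cells. The same class was highest in both libraries for 30 of 33 members, and for 72.9% of genes. A level at least 2-fold above the next class in both libraries was found for 6 members (18.2%, against 22.7% of genes): Cacna1h in dentate granule neuron-like cells, Cacna2d1 and Cacna2d2 in Cajal-Retzius-like cells, Cacna2d4 in oligodendrocyte-like cells, Cacng4 in oligodendrocyte precursor-like cells and Scn9a in interneuron-like cells. Across the 13 classes, the levels in the 2 libraries had a Pearson r between 0.835 (Scn2b) and 0.9997 (Cacna2d2) with a median of 0.976, given as a description over classes of the same 2 libraries.

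**Figure D1:**
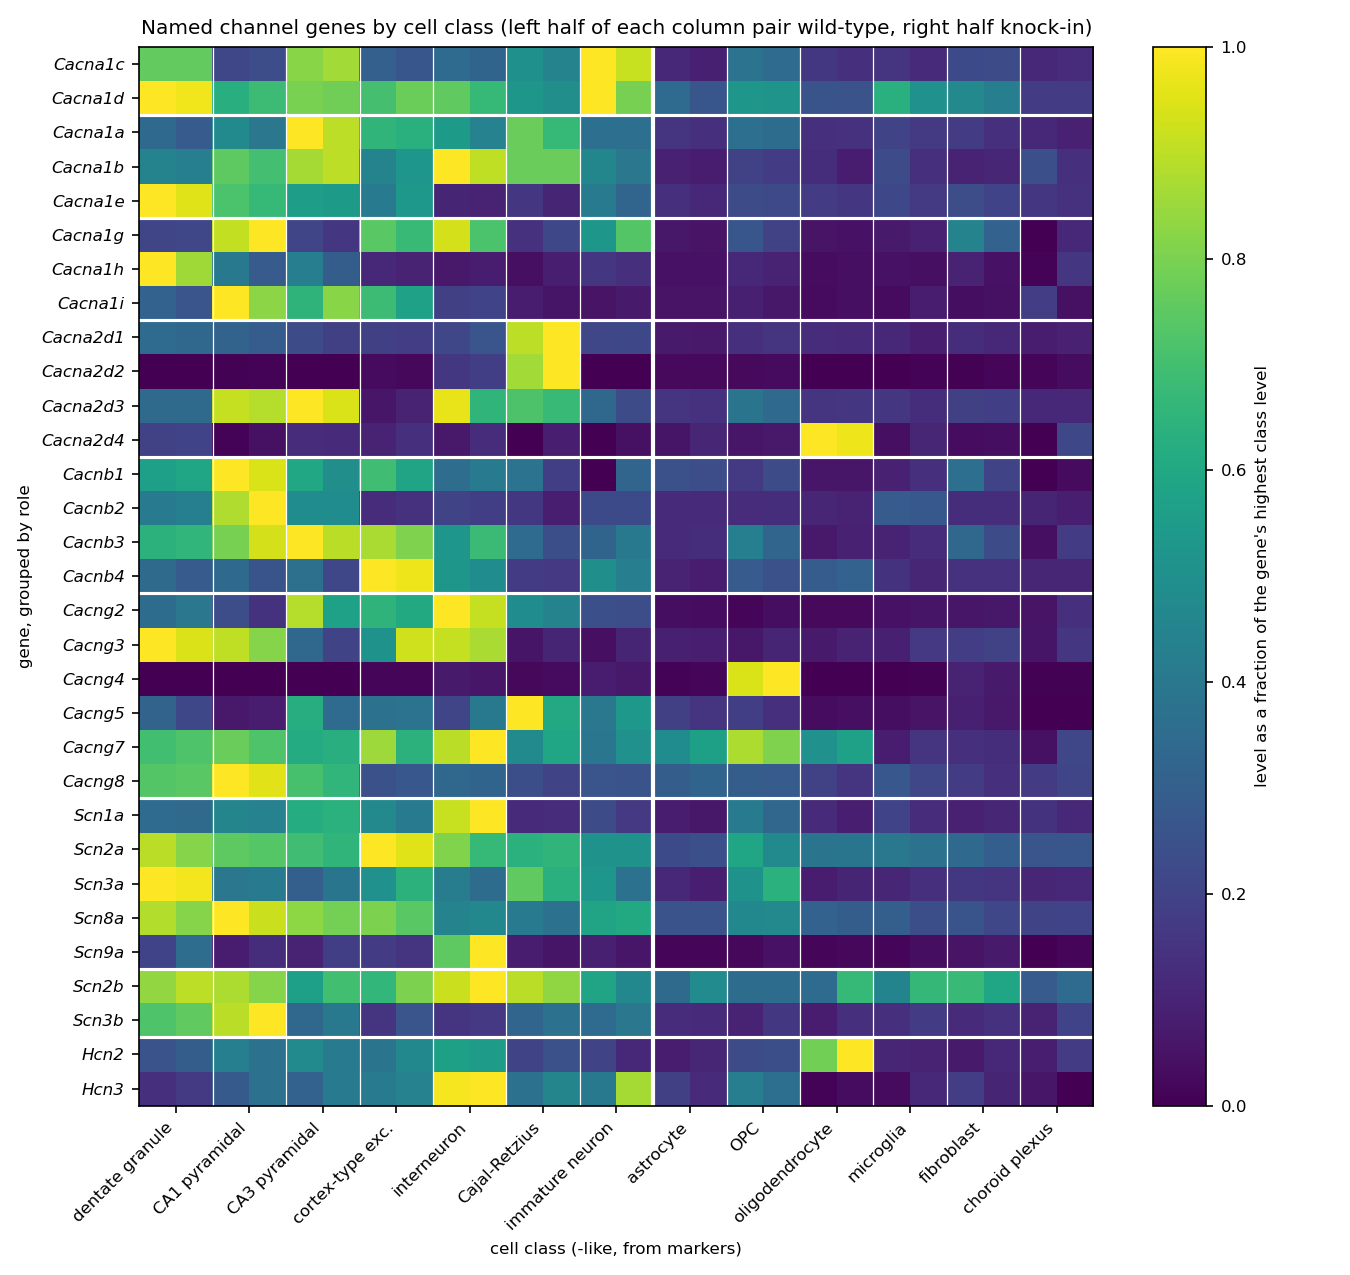
Levels of 31 of the members that reached 0.2 per 10000, each divided by its own highest class level (colour, 0 to 1), in 13 cell classes (columns, wild-type left and knock-in right of each pair), with genes grouped by role (rows). Bright cells lie left of the thick line, in the neuron classes, for 28 genes; Cacng4, Cacna2d4 and Hcn2 are brightest to its right.

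Promoter bases are shown for 4 members whose class patterns are described below, because their start regions differ in base composition. They are a pair of alpha2delta genes and a pair of sodium channel genes on chromosome 2. The bases (up to 150) lie upstream of the RefSeq start on GRCm38.p6 and outside the GENCODE gene, 5′ to 3′ on the gene's strand, with the GC box GGGCGG (either strand, occurrences may overlap) in capitals.
Cacna2d1 (chr5:15934541-15934690, plus strand): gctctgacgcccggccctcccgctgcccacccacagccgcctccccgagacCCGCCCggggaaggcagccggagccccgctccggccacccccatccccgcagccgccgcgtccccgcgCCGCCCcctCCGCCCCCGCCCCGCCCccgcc
Cacna2d3 (chr14:29721865-29722014, minus strand): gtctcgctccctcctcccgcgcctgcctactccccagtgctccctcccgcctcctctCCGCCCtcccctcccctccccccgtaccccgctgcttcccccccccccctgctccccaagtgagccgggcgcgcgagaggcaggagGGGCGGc
Scn1a (chr2:66440841-66440987, minus strand): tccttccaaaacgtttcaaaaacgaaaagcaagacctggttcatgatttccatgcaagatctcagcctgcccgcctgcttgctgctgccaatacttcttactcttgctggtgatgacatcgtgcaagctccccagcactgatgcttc
Scn2a (chr2:65620619-65620768, plus strand): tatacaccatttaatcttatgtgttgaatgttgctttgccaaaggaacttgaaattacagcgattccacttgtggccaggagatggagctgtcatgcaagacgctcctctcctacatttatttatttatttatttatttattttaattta
The G and C share of these windows was 85.3% for Cacna2d1, 77.3% for Cacna2d3, 49% for Scn1a and 33.3% for Scn2a. GGGCGG occurred 5 times in the Cacna2d1 window and 2 times in that of Cacna2d3, and in neither sodium channel window; the TATA motif was in none of the 4. The run of bases that begins at the Scn2a start used here was not found whole in a GENCODE transcript of that gene. That start lies just before the GENCODE gene start (65620771), so a run from it cannot match there in full. RefSeq listed 43 promoters of 300 bases (250 before and 50 after the start) for 32 of the 44 members. On either strand, GGGCGG was in 41.9% of these and in 35.7% of all 32851 promoters, TATAAA in 4.65 and 13.6%, the E-box CAGCTG in 30.2 and 16.3% and the E-box CACGTG in 0 and 7.15%. CAGCACC was in 0 and 7.14%, GGACAG in 16.3 and 22.2%, GCGTG in 37.2 and 32.4% and GATAAG in 6.98 and 7.44%, again with the members' share first. These are all 8 motifs of the final count; further motifs were looked at earlier and are not given. CACGTG and GCGTG can overlap at a start site, as can other motifs at their ends, and a match of letters is a description only.

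The L-type genes Cacna1c and Cacna1d encode the pore subunits that couple depolarization to calcium signalling in the cell body and dendrites. In the neuron classes, Cacna1c was at 19.3 and 17.7 in immature neuron-like, 15.9 and 16.7 in CA3 pyramidal-like, 14.7 and 14.7 in dentate granule neuron-like, 9.73 and 8.64 in Cajal-Retzius-like, 6.8 and 6.22 in interneuron-like, 5.9 and 5.17 in cortex-type excitatory-like and 4.15 and 4.56 in CA1 pyramidal-like cells. Elsewhere it was at 7.39 and 6.77 in oligodendrocyte precursor-like, 4.31 and 4.5 in fibroblast-like, 3.11 and 2.63 in oligodendrocyte-like, 2.94 and 2.33 in microglia-like, 2.24 and 2.43 in choroid plexus-like and 2.13 and 1.68 in astrocyte-like cells. The gene was thus high in immature neuron-like, CA3 pyramidal-like and dentate granule neuron-like cells of both libraries and lower in CA1 pyramidal-like cells than in any other neuron class. Outside the 13 classes, pericyte- or smooth muscle-like cells, of which there were only 27 and 48, had Cacna1c at 19.9 and 18.3 per 10000. Cacna1d was flatter, between 3.57 and 3.32 in Cajal-Retzius-like cells and 6.7 and 6.57 in dentate granule neuron-like cells among the neuron classes, with immature neuron-like cells at 6.72 and 5.33. Microglia-like cells had Cacna1d at 4.27 and 3.39, above the other non-neuronal classes in wild-type.

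Cacna1a, Cacna1b and Cacna1e encode the pores of the P/Q-, N- and R-type channels, which open transmitter release at presynaptic terminals. Cacna1e had the widest spread of these 3. Its neuronal levels were 11.2 and 10.7 in dentate granule neuron-like, 8.04 and 7.51 in CA1 pyramidal-like, 6.29 and 6.11 in CA3 pyramidal-like, 4.67 and 3.64 in immature neuron-like, 4.65 and 5.96 in cortex-type excitatory-like, 1.76 and 1.18 in Cajal-Retzius-like and 1.17 and 1.12 in interneuron-like cells. In the remaining classes it was at 2.63 and 2.25 in fibroblast-like, 2.56 and 2.48 in oligodendrocyte precursor-like, 2.42 and 1.9 in microglia-like, 1.98 and 1.77 in oligodendrocyte-like, 1.75 and 1.59 in choroid plexus-like and 1.53 and 1.23 in astrocyte-like cells. Interneuron-like cells thus had less Cacna1e than any non-neuronal class in both libraries, while dentate granule neuron-like cells had the most. Cacna1a went the other way: it was at 14.5 and 13.1 in CA3 pyramidal-like cells, 11.2 and 9.74 in Cajal-Retzius-like cells and only 4.998 and 4.18 in dentate granule neuron-like cells. Cacna1b was highest in interneuron-like cells (3.07 and 2.77), with CA3 pyramidal-like cells close behind (2.66 and 2.76).

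The T-type genes Cacna1g, Cacna1h and Cacna1i encode low-voltage-activated pores that support burst firing. Cacna1h stood out in the dentate gyrus class. Its levels in neurons were 1.82 and 1.56 in dentate granule neuron-like, 0.78 and 0.536 in CA3 pyramidal-like, 0.733 and 0.52 in CA1 pyramidal-like, 0.284 and 0.242 in immature neuron-like, 0.2003 and 0.184 in cortex-type excitatory-like, 0.123 and 0.144 in interneuron-like and 0.0775 and 0.152 in Cajal-Retzius-like cells. In other classes they were 0.207 and 0.175 in oligodendrocyte precursor-like, 0.176 and 0.0901 in fibroblast-like, 0.0914 and 0.0774 in microglia-like, 0.0873 and 0.0861 in astrocyte-like, 0.0611 and 0.0724 in oligodendrocyte-like and 0.0187 and 0.289 in choroid plexus-like cells. Cells above 0 made up 78.6% of wild-type and 78.5% of knock-in dentate granule neuron-like cells, and 3.27 and 4.63% of microglia-like cells. Cacna1i was highest in CA1 pyramidal-like cells (1.03 and 0.852) and also above 0.5 per 10000 in CA3 pyramidal-like and cortex-type excitatory-like cells. In the knock-in library CA3 pyramidal-like cells were all but level with CA1 pyramidal-like cells, at 0.849. Cacna1g was low in all 13 classes, at 0.489 and 0.537 in CA1 pyramidal-like and 0.503 and 0.386 in interneuron-like cells. Interneuron-like cells were highest in wild-type and CA1 pyramidal-like cells in knock-in, where immature neuron-like cells came second (0.394).

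Of the alpha2delta genes, the members whose proteins are reported to carry a GPI anchor, Cacna2d1 and Cacna2d2 were highest in Cajal-Retzius-like, Cacna2d3 in CA3 pyramidal-like and Cacna2d4 in oligodendrocyte-like cells of both libraries. Cacna2d2 (ENSMUSG00000010066; chromosome 9, 107399612 to 107529343, plus strand, GRCm38) had the widest spread of all members, and its neuronal levels were 6.73 and 7.81 in Cajal-Retzius-like, 1.26 and 1.44 in interneuron-like, 0.221 and 0.154 in cortex-type excitatory-like, 0.0537 and 0.0636 in CA1 pyramidal-like, 0.0226 and 0.0249 in CA3 pyramidal-like, 0.0103 and 0.0161 in dentate granule neuron-like and 0 and 0.0127 in immature neuron-like cells. In the other classes they were 0.207 and 0.203 in astrocyte-like, 0.207 and 0.233 in oligodendrocyte precursor-like, 0.131 and 0.258 in choroid plexus-like, 0.0554 and 0.112 in fibroblast-like, 0.0173 and 0.0277 in oligodendrocyte-like and 0.0152 and 0.0704 in microglia-like cells. Cacna2d2 was above 0 in 93.4% of wild-type (95% interval 84.1 to 98.2%) and 100% of knock-in Cajal-Retzius-like cells (96.4 to 100%), the intervals being exact binomial and covering counting error only. In microglia-like cells, taken as the level that stray RNA gives, it was above 0 in 0.743 and 2.32%, at median totals of 7446 and 7881 against 8184 and 8324. After every cell was thinned to a total of 1000, the shares were 52.5 and 50% in Cajal-Retzius-like and 0.297 and 0.463% in microglia-like cells.

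Cacna2d1 (chromosome 5, 15934691 to 16374511, plus strand), a target of gabapentinoid drugs, also peaked in Cajal-Retzius-like cells, at 22.8 and 25.4, but was present in every neuron class, from 4.79 and 4.63 in cortex-type excitatory-like to 8.87 and 8.48 in dentate granule neuron-like cells. Cacna2d3 (chromosome 14, 28904943 to 29721864, minus strand) was high in CA3 pyramidal-like (13.8 and 13), CA1 pyramidal-like (12.6 and 12.3), interneuron-like (13.3 and 9.04) and Cajal-Retzius-like cells (9.91 and 9.34). In cortex-type excitatory-like cells it was at 0.838 and 1.38, below all 6 non-neuronal classes in both libraries. Cacna2d4 (chromosome 6, 119236526 to 119352407, plus strand), known from the retina, was at 0.281 and 0.273 in oligodendrocyte-like cells and at most 0.0608 in the other 12 classes of the knock-in library.

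The beta subunits bind the alpha1 subunit from the cytosol. Cacnb4 showed the widest spread among them and was at 12.2 and 11.9 in cortex-type excitatory-like, 6.44 and 5.91 in interneuron-like, 6.08 and 5.22 in immature neuron-like, 4.49 and 2.6 in CA3 pyramidal-like, 4.21 and 3.51 in dentate granule neuron-like, 4.15 and 3.18 in CA1 pyramidal-like and 2.11 and 1.999 in Cajal-Retzius-like cells. Outside neurons it was at 3.53 and 3.83 in oligodendrocyte-like, 3.51 and 3.03 in oligodendrocyte precursor-like, 1.78 and 1.31 in microglia-like, 1.74 and 1.75 in fibroblast-like, 1.31 and 1.31 in choroid plexus-like and 1.15 and 0.91 in astrocyte-like cells. Both libraries placed cortex-type excitatory-like cells first. Cacnb2 was instead highest in CA1 pyramidal-like cells (21 and 23.8), with 11.6 and 11.6 in CA3 pyramidal-like and 9.92 and 10.3 in dentate granule neuron-like cells, and lowest of the neuron classes in cortex-type excitatory-like (wild-type) and Cajal-Retzius-like cells (knock-in). Microglia-like cells held 6.8 and 6.52, above the astrocyte-like level (2.97 and 2.85). Cacnb1 and Cacnb3 stayed at or below 0.508 per 10000 in every class and were highest in pyramidal classes.

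Among the gamma genes, the TARP Cacng4 was the one most limited to a single class. In neurons it was at 0.587 and 0.509 in immature neuron-like, 0.536 and 0.441 in interneuron-like, 0.155 and 0.222 in Cajal-Retzius-like, 0.126 and 0.121 in cortex-type excitatory-like, 0.0155 and 0.0197 in dentate granule neuron-like, 0.0115 and 0.0173 in CA1 pyramidal-like and 0 and 0.0138 in CA3 pyramidal-like cells. In the other classes it was at 6.94 and 7.36 in oligodendrocyte precursor-like, 0.693 and 0.526 in fibroblast-like, 0.069 and 0.137 in astrocyte-like, 0.0373 and 0.0304 in choroid plexus-like, 0.0165 and 0.0277 in oligodendrocyte-like and 0.00952 and 0.0497 in microglia-like cells. It was above 0 in 89% (95% interval 84 to 92.9%) and 93.4% (89.9 to 95.9%) of oligodendrocyte precursor-like cells and in 0.446 and 2.2% of microglia-like cells. Mature oligodendrocyte-like cells of the same lineage had 0.0165 and 0.0277 per 10000. Cacng8, the TARP typical of hippocampal AMPA receptors, was highest in CA1 pyramidal-like cells (3.77 and 3.59), followed by dentate granule neuron-like (2.75 and 2.8) and CA3 pyramidal-like cells (2.67 and 2.48). Cacng2, which encodes stargazin, was highest in interneuron-like cells (1.83 and 1.67). Cacng3 was at 1.34 and 1.27 in dentate granule neuron-like and 0.445 and 0.274 in CA3 pyramidal-like cells, with CA1 pyramidal-like cells at 1.21 and 1.09. Cacng7 was spread over neurons, oligodendrocyte precursor-like (0.753 and 0.691) and astrocyte-like cells (0.418 and 0.489). Cacng5 was highest in Cajal-Retzius-like cells, at 0.31 and 0.187.

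Of the 10 sodium channel alpha genes, 5 passed the minimum, and 4 of these lie in 1 stretch of chromosome 2: Scn3a (65457118 to 65567627), Scn2a (65620771 to 65767447), Scn1a (66270778 to 66440840) and Scn9a (66480080 to 66634962, all GRCm38). Scn1a and Scn9a were both highest in interneuron-like cells and the other pair elsewhere. Scn9a, best known from pain-sensing neurons, had the widest spread and was at 0.923 and 1.23 in interneuron-like, 0.245 and 0.438 in dentate granule neuron-like, 0.216 and 0.187 in cortex-type excitatory-like, 0.119 and 0.227 in CA3 pyramidal-like, 0.107 and 0.0763 in immature neuron-like, 0.0998 and 0.161 in CA1 pyramidal-like and 0.0969 and 0.0701 in Cajal-Retzius-like cells. It was at 0.0647 and 0.0865 in fibroblast-like, 0.0287 and 0.0582 in oligodendrocyte precursor-like, 0.0231 and 0.026 in oligodendrocyte-like, 0.0223 and 0.0204 in astrocyte-like, 0.0171 and 0.0442 in microglia-like and 0 and 0.0152 in choroid plexus-like cells of the other classes. A value of 2 or more of Scn9a occurred in 22.3 and 29.1% of interneuron-like and 0.297 and 0.811% of microglia-like cells. Scn1a, a main channel of fast-spiking interneurons, was highest in interneuron-like cells (3.94 and 4.3) and next in CA3 pyramidal-like cells (2.66 and 2.74). Scn2a was highest in cortex-type excitatory-like cells (3.31 and 3.16) and dentate granule neuron-like cells (2.97 and 2.71). Scn3a, prominent in the developing brain, was highest in dentate granule neuron-like cells (1.89 and 1.86), above immature neuron-like cells (0.995 and 0.712). Scn8a, the channel of the axon initial segment of mature neurons, was highest in CA1 pyramidal-like cells (5.41 and 4.98) and lowest among neurons in Cajal-Retzius-like cells (2.21 and 2.02).

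The sodium channel beta subunits are adhesion-type partners of the alpha subunits. Scn3b, the one with the widest spread, was at 1.55 and 1.73 in CA1 pyramidal-like, 1.26 and 1.31 in dentate granule neuron-like, 0.604 and 0.687 in immature neuron-like, 0.577 and 0.697 in CA3 pyramidal-like, 0.562 and 0.643 in Cajal-Retzius-like, 0.269 and 0.456 in cortex-type excitatory-like and 0.265 and 0.285 in interneuron-like cells. Outside neurons it was at 0.24 and 0.298 in microglia-like, 0.217 and 0.21 in astrocyte-like, 0.213 and 0.249 in fibroblast-like, 0.168 and 0.349 in choroid plexus-like, 0.167 and 0.283 in oligodendrocyte precursor-like and 0.135 and 0.242 in oligodendrocyte-like cells. Scn2b lay between 0.478 and 0.519 in interneuron-like and 0.149 and 0.182 in choroid plexus-like cells.

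The HCN genes encode the pore subunits of the hyperpolarization-activated channels. Hcn2 was highest in oligodendrocyte-like cells (0.893 and 1.14), where 25.5 and 31.9% of cells were above 0, and next in interneuron-like cells (0.645 and 0.628). Hcn3 was highest in interneuron-like cells (0.303 and 0.308).

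**Figure D2:**
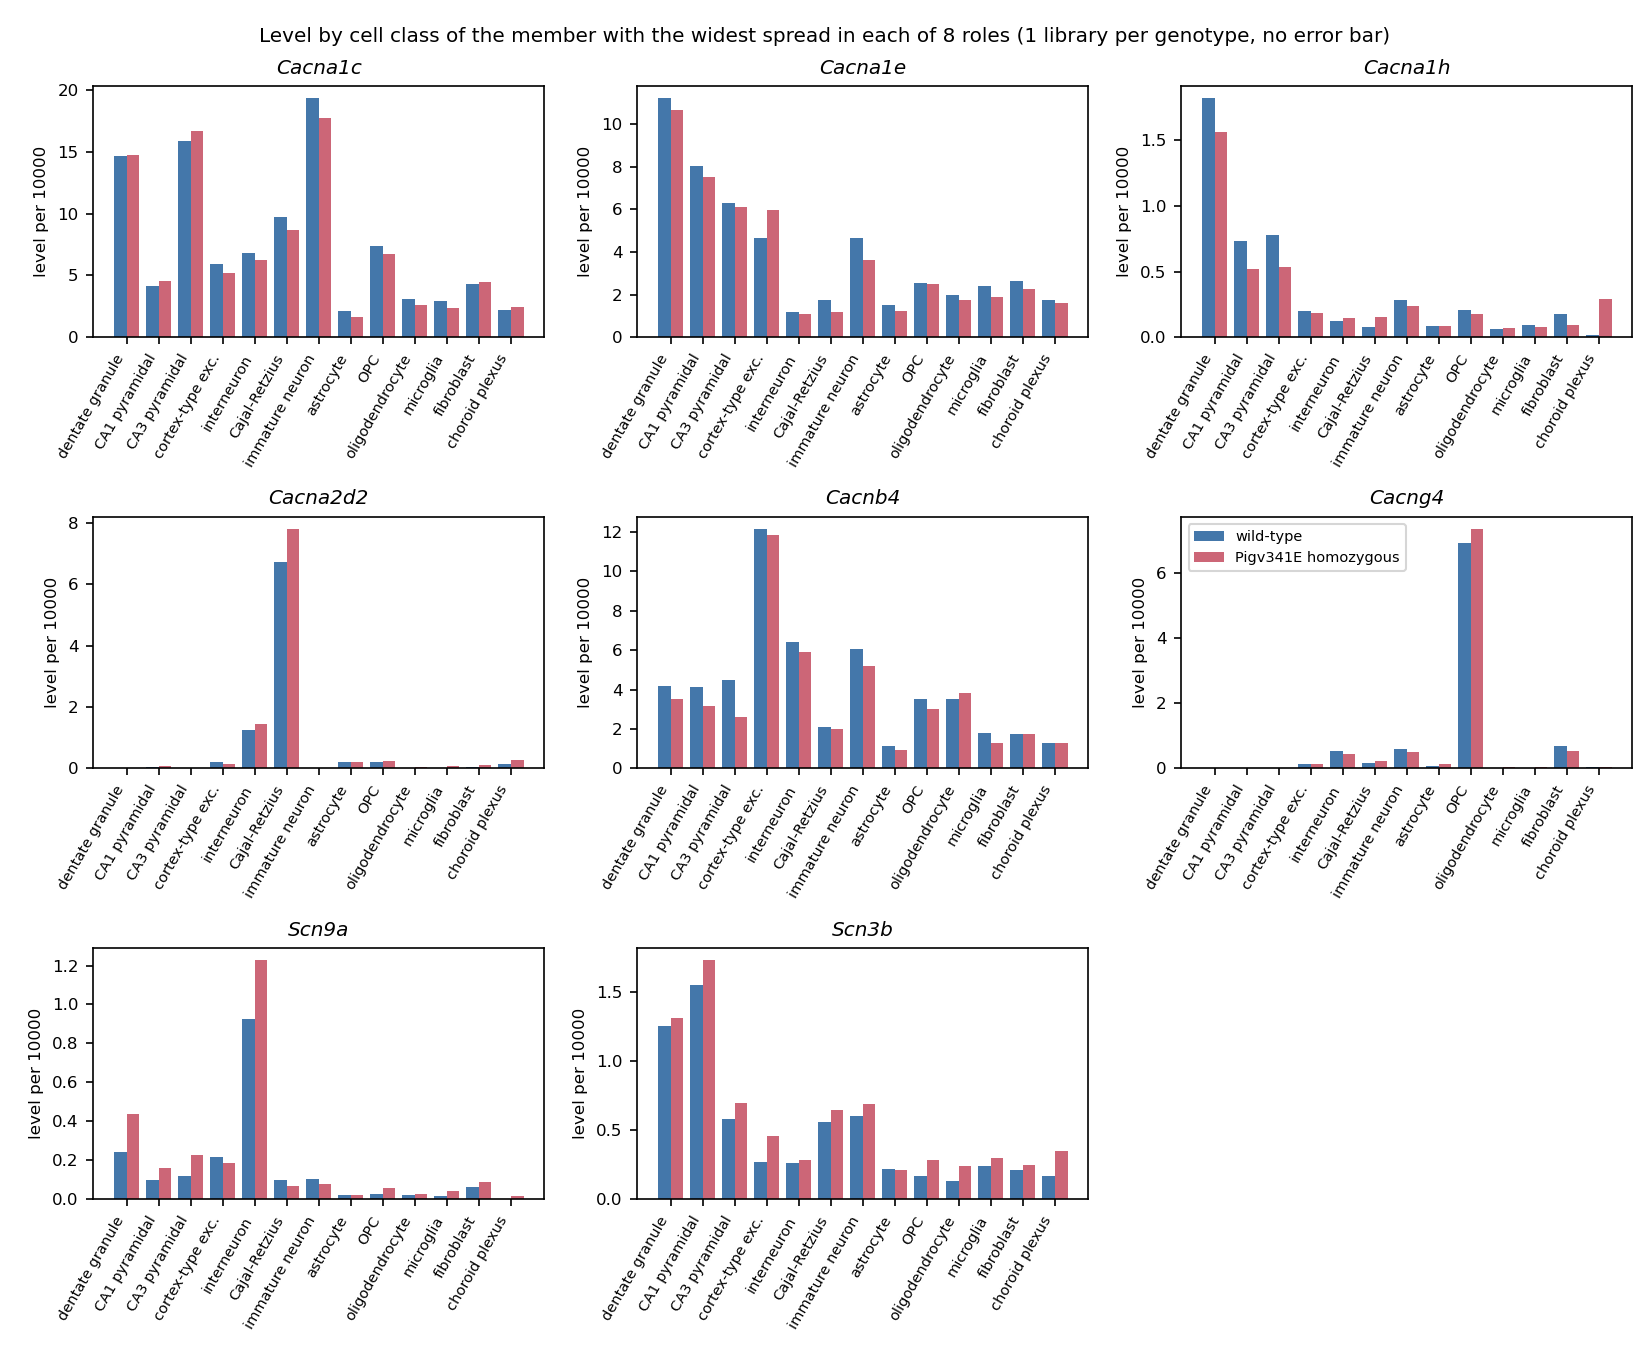
Level per 10000 (bars from 0) in 13 cell classes of the member with the widest spread in each of 8 roles, wild-type in blue and knock-in in red, 1 library each. Cacna2d2 stands out in Cajal-Retzius-like cells (6.73 and 7.81) and Cacng4 in oligodendrocyte precursor-like cells (6.94 and 7.36), with similar bars for both libraries.

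The knock-in library was then compared with the wild-type library class by class, as the log2 ratio of levels with 0.1 per 10000 added to each, which understates the change of low genes. A member was counted when the ratio reached 1 in either direction (2-fold), the level was at least 1 per 10000 in 1 library, and 10% or more of the cells behind that level were above 0. Over all cells, 14 members met the level minimum and 0 passed 2-fold, against 0.289% of 2075 genes. Within classes, 180 pairs of member and class met it and 0 passed, against 0.777% of 26656 pairs over all genes. At a ratio of 0.5, again 0 members passed over all cells (genes 1.30%), and in classes 2 pairs (1.11%) were higher in the knock-in library (genes 2.99%) and 7 (3.89%) lower (genes 2.88%). Ratios within 0.25 of 0 made up 75.6% of the member pairs and 73.7% of all pairs. No size at this threshold carries an error rate, since neither genotype has a replicate.

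The 9 pairs past 0.5 included the 8 that follow. Cacnb2 in Cajal-Retzius-like cells was at 3.86 and 1.98 per 10000 (log2 ratio -0.93, -1.01 to -0.71 over the processing alternatives), and Cacna1e in the same cells at 1.76 and 1.18 (-0.54, -0.69 to -0.34). Both were lower in the knock-in library, in a class of 61 and 100 cells whose own 6 markers summed to 84.7 and 112 per 10000, none of them at 0. Among markers of other classes there, general interneuron markers summed to 0.659 and 2.54 (Erbb4 0.388 and 1.65). Those of mature oligodendrocytes summed to 2.73 and 4.65. Dentate granule markers (4.23 and 4.14), CA3 markers (2.42 and 2.3) and general excitatory markers (5.27 and 4.83) were slightly lower in knock-in cells. In that class a ratio of 0.5 was common: 14.3% of genes reached it in either direction, and 2 of 14 members did. In CA3 pyramidal-like cells Cacnb4 was at 4.49 and 2.6 (-0.77, -0.81 to -0.59) and Cacng2 at 1.62 and 1.04 (-0.59, -0.88 to -0.36), while the 7 CA3 markers summed to 41.1 and 42.1; 4.27% of genes and 2 of 15 members reached 0.5 there. Cacnb4 was lower in the knock-in library in 10 of 13 classes, -0.37 in CA1 pyramidal-like and -0.25 in dentate granule neuron-like cells, and higher in oligodendrocyte-like cells (0.12). The part of marker levels in these values was not tested.

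Cacna2d3 passed 0.5 in 3 classes and in both directions. In interneuron-like cells it was at 13.3 and 9.04 per 10000 (log2 ratio -0.55, -0.59 to -0.51 over the alternatives), in immature neuron-like cells at 4.67 and 3.18 (-0.54, -0.65 to -0.44), and in cortex-type excitatory-like cells at 0.838 and 1.38 (0.65, 0.11 to 0.93). Among all genes, 2.92% reached 0.5 in either direction in the interneuron-like class, 12% in the immature neuron-like and 8.14% in the cortex-type class. The makeup of the interneuron-like class also differed: the 7 markers of Adarb2-type interneurons summed to 63.5 and 47.9 per 10000. Those of Lhx6-type interneurons summed to 32.5 and 35.2. Most of the Adarb2-type sum was Adarb2 itself, at 57.5 and 42.4. Vip (1.3 and 1.02) and Cnr1 (3.12 and 2.78) were also lower in the knock-in library. Npas1 (0.839 and 0.846), Htr3a (0.161 and 0.183) and Cck (0.581 and 0.706) were higher, and Sncg was at 0 in both. Split by their own Adarb2 value at 10, a split made after these values were seen, the interneuron-like cells below it had Cacna2d3 at 17.4 and 10.9 (75 and 145 cells, -0.67) and those at or above it 9.41 and 6.47 (82 and 109 cells, -0.53). The median value per cell was 17 and 6 in the former and 7.5 and 5 in the latter. The former made up 47.8 and 57.1% of the class, and the latter 52.2 and 42.9%. In the immature neuron-like class the 7 general interneuron markers summed to 7.27 and 13.9, those of Adarb2-type interneurons to 5.19 and 10.2 and the class's own 6 to 12.6 and 14.3. In the cortex-type class the CA1 markers summed to 3.56 and 5.13, the CA3 markers to 9.42 and 7.32 and its own 7 to 56.1 and 55.1. Most of the last sum was Hs3st4 (42.5 and 40.2), which was also at 33.2 and 33.9 in CA3 pyramidal-like cells. The part of these markers in the Cacna2d3 values was not tested. The cortex-type class consisted of 2 clusters, with Cacna2d3 at 1.1 and 1.68 in the one led by Gm28928 (105 and 223 cells) and 0.525 and 0.727 in the one led by Vwc2l (87 and 106 cells). With the clusters weighted equally in both libraries, the ratio was 0.54. Cacng3 in the same class was at 0.68 and 1.24 (0.78, 0.41 to 1.05); it was at 0.778 and 1.56 in the first cluster and 0.56 and 0.566 in the second, so its difference lay in the first.

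**Figure D3:**
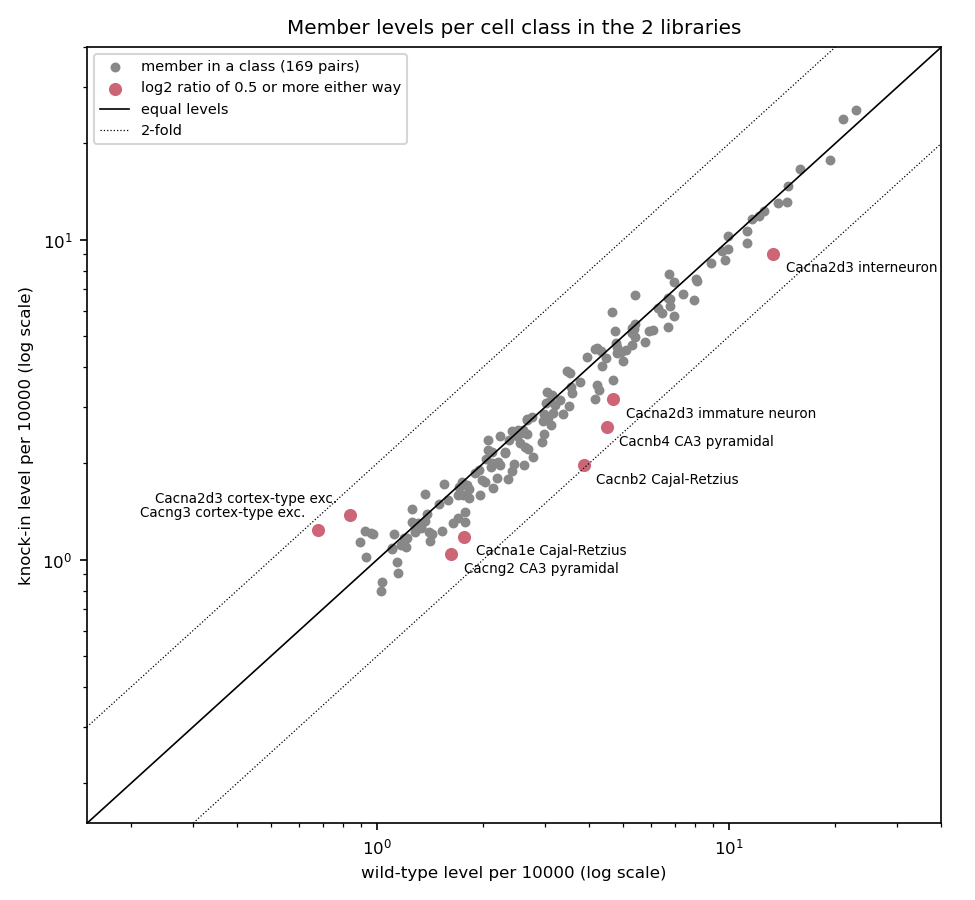
Level per 10000 in the wild-type (x axis) and knock-in library (y axis), both on log scales, for 169 of the pairs of member and class that met the level minimum. All points lie within or on the dotted 2-fold lines once 0.1 is added to each level, and 8 pairs past a log2 ratio of 0.5 are drawn in red and named.

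Most pairs at or above 1 per 10000 were slightly lower in the knock-in library in 7 of the 9 roles, and slightly higher in the sodium beta and HCN genes. For the P/Q-, N- and R-type genes 29 of 33 pairs were lower (median log2 ratio -0.14), and Cacna1a was lower in 12 of 13 classes, between -0.38 (fibroblast-like) and 0.017 (oligodendrocyte-like). T-type genes were lower in 2 of 2 pairs (-0.23), and sodium beta genes in 0 of 2 (0.10). L-type genes were lower in 19 of 26 pairs (-0.11), alpha2delta genes in 19 of 28 (-0.056), beta genes in 17 of 26 (-0.068), gamma genes in 11 of 16 (-0.063) and sodium alpha genes in 25 of 35 (-0.065). Over all roles 126 of 180 pairs (70%) were lower, against 62% of the pairs of all genes, so pairs of genes at large leaned the same way. With values of 1 set to 0 the count was 104 of 180, and 18 of 35 for sodium alpha genes, whose median came to -0.004; no role's median changed sign then or after centring on all genes. Scn3b had the higher level in knock-in cells in 11 of 12 classes in which it reached 0.2 per 10000 (10 with values of 1 set to 0), by 0.15 in CA1 pyramidal-like and 0.054 in dentate granule neuron-like cells. In several non-neuronal classes its level lay just above that minimum. All classes come from the same 2 libraries, and no share of all genes is given for such a count.

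As a median over members whose levels averaged 0.2 per 10000 or more, the log2 ratio over all cells was -0.0095 for 29 members and 0.046 for 7842 genes. In the classes it lay between -0.29 (microglia-like; all genes 0.089) and -0.0081 (dentate granule neuron-like; all genes 0.046), below the median of all genes in 13 of 13 classes. With values of 1 set to 0, the members' median was positive in 7 of 13 classes and below that of all genes in 6, so its sign depended on the lowest values. The 29 members at that level over all cells had a median span of 128 kb, against 47.2 kb for all genes at that level. Over all cells, genes of 100 kb or more had a median ratio of -0.039 (17 members -0.027), genes between 25 and 100 kb 0.026 (5 members 0.12) and genes under 25 kb 0.14 (7 members 0.051); the bins were chosen after these values were seen. The part of gene length in the members' medians was not tested. In microglia-like cells, genes of 100 kb or more were at -0.13 and the 14 members among them at -0.32. The members' microglia-like median was -0.10 when the 3 clusters of that class were weighted equally in both libraries. The cluster led by Cst3 held 177 wild-type and 117 knock-in cells, that led by Inpp5d 241 and 349, and that led by P2ry12 255 and 397. Cacna2d3 was at 4.14 and 3.21 in the first and 0.499 and 0.62 in the last. The part of these clusters in the median was not tested.

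**Figure D4:**
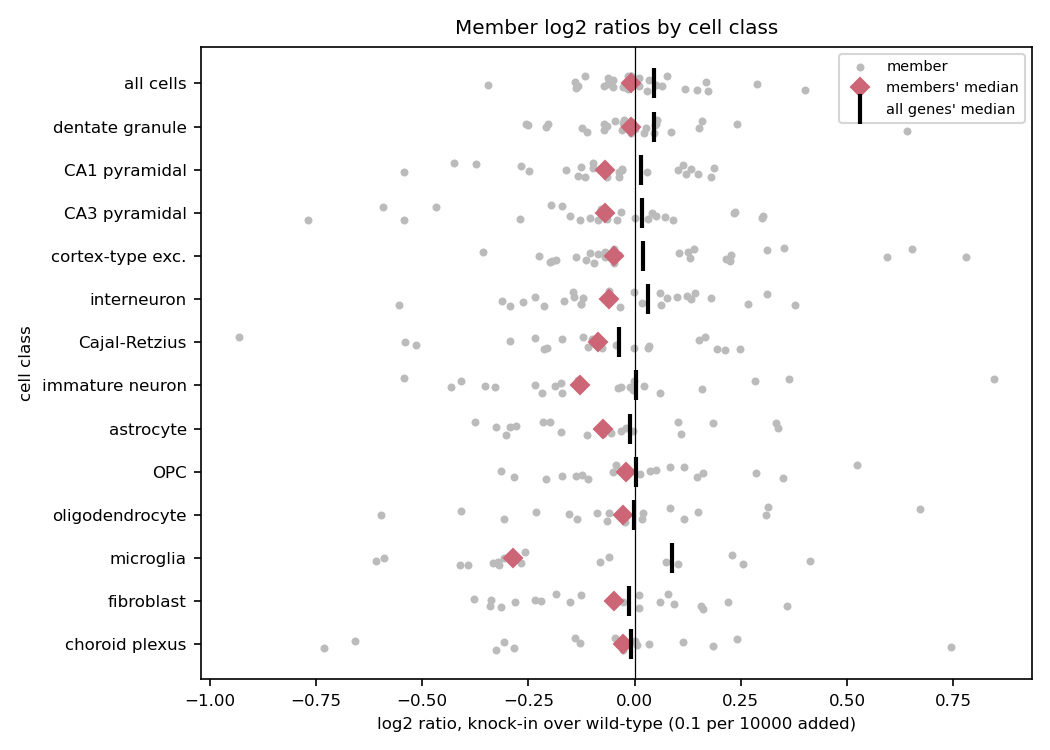
Log2 ratio of knock-in over wild-type (x axis) for each member whose levels averaged 0.2 per 10000 or more (grey points), the members' median (red diamond) and the median of all genes (black bar), over all cells and in 13 classes (rows). The diamond lies left of the bar in every row, by the most in microglia-like cells (-0.29 against 0.089), with values as deposited.

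Genes that bind, anchor or work beside these channels (fibroblast growth factor homologous factors, ankyrins, calmodulins, ryanodine and inositol trisphosphate receptors, active zone scaffolds, AMPA receptor subunits and others) were counted in the same way. Of 41 symbols, 40 were in the table and 35 reached 0.2 per 10000 in a class; 22 of these were highest in a neuron class in both libraries (62.9%, against 41.3% of genes). None of their 314 pairs with a class passed 2-fold (genes 0.777%). At a log2 ratio of 0.5, 2 pairs (0.637%) were higher in knock-in cells and 7 (2.23%) were lower, against 2.99 and 2.88% of the pairs of all genes.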

How the data were processed

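Single-cell transcripts of the hippocampus were measured in 1 wild-type and 1 knock-in library. The authors deposited 1 table of values, treated here as a score: per the submitters' processing notes Seurat 3.0.0 and the GRCm38 build were used, and the whole-number totals per cell (4846 to 14501) lie in a band too narrow for raw counts. The aligner is not given in the sources used here. No count model was fitted and no test was run, since each genotype has 1 library.

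Cells were clustered with scanpy 1.11.5 (Python 3.11.15) on 2000 variable genes without the members, their partners and sex-linked genes, with 30 principal components, 15 neighbours and Leiden resolution 1, giving 35 clusters. A marker counted in a cluster when at least 25% of cells were above 0 and its level was 1.5-fold that of other cells. The class with most markers was taken as a cluster's name (at least 4, and 40% of its list). A cluster stayed unnamed (10 clusters) when no class had these. It also stayed unnamed when an unrelated class had at least 3 of its markers and 30% of its list. The same held when an unrelated class had more of the 10 leading genes than the cluster's own class. A further ground was 3 or more leading genes that were mitochondrially encoded. These limits, and the merging of oligodendrocyte stages and of interneuron types, were set after the clusters had been seen. Names end in "-like" for this reason. Doublets were kept; Scrublet marked 61 and 209 cells.

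The members and lists were chosen with earlier results of these data known. Members reaching 0.2 per 10000 in a class are named with values, and in each role the member with the widest spread over classes (mean of both libraries) is given in all classes; results for some members are not reported here. The level computation was tested on simulated data. Shares have exact Clopper-Pearson 95% intervals. Gene positions are GENCODE M21 on GRCm38. Alternatives changed the added constant (0.01, 1), level definition, values of 1, doublets, cell filter (500 genes, 10% mitochondrial), resolution 2, 15 components, cluster weights, centring and, added after the data had been seen, shared barcodes. A ratio is said to have moved when it shifted by more than the half-width, on the log2 scale, of the exact intervals of the shares of cells above 0 in both libraries, a limit also set after the data had been seen, as were the span bins, the Adarb2 split and the use of a ratio of 0.5 to single out genes.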

Additional observations from a re-analysis of the deposited data

Results flagged for a closer look

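Cacna2d3 went in opposite directions in different cell classes of the same libraries. Its log2 ratio of knock-in over wild-type was 0.65 in cortex-type excitatory-like cells, -0.55 in interneuron-like cells and -0.54 in immature neuron-like cells. It stood out because a ratio of at least 0.5 was met in both directions, a limit applied after the values were seen. The upward ratio came from the class with the lowest Cacna2d3 level in both libraries, cortex-type excitatory-like cells (0.838 in wild-type and 1.38 in knock-in). Over the processing alternatives it lay between 0.11 and 0.93, and 8.14% of all genes reached 0.5 in either direction in that class. The downward ratios lay between -0.59 and -0.51 in interneuron-like cells and between -0.65 and -0.44 in immature neuron-like cells. In those classes 2.92 and 12% of genes reached 0.5. The difference between the classes was not tested.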

How the results depend on the processing

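The count of members highest in a neuron class lay between 24 (values of 1 set to 0) and 29 over all alternatives run, and the members' median over all cells between -0.056 and 0.014. The microglia-like median of -0.29 became -0.10 with values of 1 set to 0, -0.10 with equal cluster weights and 0.0051 with all members above 0; the oligodendrocyte-like median of -0.027 became 0.15 with values of 1 set to 0. The 0 pairs past 2-fold became 2 with values of 1 set to 0 (Cacnb2 in Cajal-Retzius-like cells, -1.01, and Cacng3 in cortex-type excitatory-like cells, 1.05). No share of all genes is given for that count. With a log2 ratio of 0.5 the count was 9. With a level of 0.2, 1 of 310 pairs passed, against 1.18% of the pairs of all genes. It was Cacna1h in choroid plexus-like cells (0.0187 and 0.289 per 10000, named after its value was seen). In that class 4.36% of genes passed. For why these values moved, the cause was not tested beyond the looser limits themselves. By the limit taken from the shares of cells above 0, single ratios moved most often with values of 1 set to 0 (106 of 339). They did not move at all under the cell filter or without shared barcodes. That limit is not the counting error of a level. At 15 components no cluster was named immature neuron-like, so that class has no value there. No paired analysis was possible because each genotype has 1 library. Depth is unknown, and differences in classes of under 100 cells, such as Cajal-Retzius-like wild-type cells, rest on few cells.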

Other observations

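Clusters outside the named classes held further member levels. The unnamed cluster led by Gm42705, Fn1 and Gm6260 (164 and 261 cells) had Cacng3 at 2.89 and 2.06 per 10000, Cacna1g at 0.751 and 0.885 and Scn1a at 3.33 and 3.21, and its Cacna2d3 level, 12.6 and 13, was near that of CA1 pyramidal-like cells. A cluster led by 6330411D24Rik, Lef1 and Otx2os1 (82 and 219 cells) was second to Cajal-Retzius-like cells in Cacna2d2, at 1.93 and 1.96, and had Cacng5 at 0.719 and 0.401 and Cacna1g at 0.793 and 0.872. The cluster led by Unc5d, Fhod3 and Efna5 (140 and 517 cells) had Cacna2d3 at 13.5 and 13 and Cacng3 at 2.59 and 2.94.

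Ependymal-like cells, only 18 and 14, had Cacnb2 at 11 and 10.2 and Cacna1d at 8.39 and 5.21 per 10000, and Scn7a, a sodium channel relative known from salt sensing, at 0.489 and 0.661. These clusters and classes were singled out after their values had been seen.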
